A study of Homo sapiens with 15 samples.

Results

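The genes described here are ZFP36, ZFP36L1 and ZFP36L2 (the ZFP36 family), BTG1 and BTG2, and TIPARP, chosen by gene name and not by a threshold on a measured value. They are 6 of the 57773 genes counted in each library, and all 6 had enough reads to be tested, as had 13085 genes in all. Total RNA was sequenced from marrow flushed out of the femurs of SCID-beige mice, which have almost no working lymphocytes, that carried MM.1S, an established human myeloma cell line bearing green fluorescent protein and luciferase (gfp+/luc+). All mice received these cells by vein. Of the 5 groups, bortezomib mice received 0.25 mg/kg of this proteasome inhibitor into the peritoneum weekly, and elesclomol mice received 25 mg/kg of this copper ionophore under the skin. Combination mice received both drugs from the start. Delayed combination mice also received both, but elesclomol began 14 days after a mouse entered the study. PBS mice received the saline vehicle alone by vein. There were 5 mice to a group, and tumours of 3 of them were sequenced (n = 3 libraries per group). MM.1S is a single line, and the marrow pellets also held mouse cells.

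An mRNA is usually destroyed from its tail: deadenylases of the CCR4-NOT complex shorten the poly(A) tail, and the message is then decapped or degraded by the exosome. ZFP36 proteins carry zinc fingers that bind AU-rich elements in the 3′ untranslated region and bring CCR4-NOT to the message, and the p38 and MK2 kinases switch them off by phosphorylation. BTG1 and BTG2 bind the deadenylase subunits CNOT7 and CNOT8 and speed up tail shortening, hold back cell division, and are known in B cells as targets of mutation in lymphoma. TIPARP is an enzyme that attaches single ADP-ribose units to proteins. It carries a zinc finger of the same class as the ZFP36 proteins, is switched on by the aryl hydrocarbon receptor (AHR) and represses that receptor in turn, but is not known chiefly for mRNA decay.

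The messages of 4 of the 6 genes themselves carry the element that ZFP36 proteins prefer. The sites are shown because they are what the 4 share by sequence, apart from how they were chosen. The nonamer UUAUUUAUU was searched in the sense strand of the longest annotated 3′ untranslated region of each gene in GENCODE 29 (GRCh38). It was found in 1065 of the 11043 tested genes with such a region, or 9.64%. ZFP36, ZFP36L1 and ZFP36L2 held 1 nonamer each and TIPARP held 2, while BTG1 and BTG2 held 0 in this region. The shorter core UAUUUAU, which lies within the nonamer, was present in all 6 genes and in 36.7% of tested genes, and the pentamer AUUUA, also within it, in 75.3%. A match is a string of letters and was not tested as a binding site. The sites read 5′ to 3′ with the nonamer in capitals:
ZFP36: uaugacgacuUUAUUUAUUcuaauaugau
ZFP36L1: aacuguuggaUUAUUUAUUuuagaaauuc
ZFP36L2: acuauuuaacUUAUUUAUUaucuugugaa
TIPARP, site 1: aggauucuauUUAUUUAUUuacguuugau
TIPARP, site 2: uuccacacacUUAUUUAUUuugcccuagu

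RefSeq promoters (GRCh38.p14, 250 bases before to 50 after a start) were on hand as 8 entries of 5 of the genes. The AHR core GCGTG, searched on both strands, was found in 36.5% of 35116 promoters. Of 3 TIPARP entries, the one at chr3:156674340-156674639 on the plus strand held 2 such matches and the others 0, shown in capitals as they read on the printed strand.
TIPARP: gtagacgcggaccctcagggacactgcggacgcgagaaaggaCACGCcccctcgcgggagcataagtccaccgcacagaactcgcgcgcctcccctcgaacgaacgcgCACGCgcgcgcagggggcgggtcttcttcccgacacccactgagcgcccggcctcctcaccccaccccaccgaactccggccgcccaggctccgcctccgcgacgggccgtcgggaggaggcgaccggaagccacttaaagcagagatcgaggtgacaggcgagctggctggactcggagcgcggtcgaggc
BTG1 and ZFP36 entries held 1 match each, and those of BTG2 and ZFP36L1 held 0. The cyclic AMP response element TGACGTCA, present in 1.85% of promoters on either strand, was found in 1 of the 2 ZFP36L1 entries and in no other. The AP-1 motif TGANTCA (7.71% of promoters) and the CArG box (1.29%) were found in 0 of the 8 entries.

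The 15 libraries held 4500326 to 13161087 counts, of which mitochondrial DNA genes took 35% to 40.3%, and the 6 genes had between 93 and 5560 counts in a library. Of 12 myeloma and plasma cell markers, 11 were well detected in all libraries, and CD27 had at most 10 counts. The markers used for host cell types are human genes counted on a human genome. Their level therefore cannot show how much mouse tissue a library held. They were low, but erythroid markers summed to 342 CPM (counts scaled to library size) in the highest elesclomol library, against at most 32.9 CPM with PBS. That library, elesclomol 1, had the highest mean host marker level, 1.65 log2 CPM, against 0.15 to 0.31 with PBS. Gene levels, as deviations from their mean over the 15 libraries, shifted with GC content. The correlations across genes were 0.51, 0.49 and 0.32 in bortezomib 1, combination 1 and delayed combination 2, called GC-shifted below. They were -0.35 to -0.29 with PBS, at the other end, and -0.31, -0.27 and -0.25 in bortezomib 2, elesclomol 2 and combination 2. Every treated group averaged above PBS in this correlation, so each comparison with PBS carries a difference in GC shift. Of these host lists, 2 of 9 erythroid, 5 of 11 granulocyte, 4 of 11 macrophage, 3 of 7 endothelial and 9 of 12 stromal markers could be tested, and 0 passed in any comparison with PBS. Over all libraries the granulocyte markers summed to 7.07 to 131 CPM, the macrophage markers to 13.7 to 70.4, the endothelial markers to 2.52 to 14.3 and the stromal markers to 108 to 242. In bulk marrow, fewer cells of a type and less RNA per cell cannot be told apart. The chromosomes are 19 for ZFP36, 14 for ZFP36L1, 2 for ZFP36L2, 12 for BTG1, 1 for BTG2 and 3 for TIPARP.

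BTG2 was the most abundant of the 6 genes and ZFP36L1 the least. Per kilobase of exon, the level averaged over 15 libraries was 155 CPM for BTG2, 39.8 for BTG1, 30.4 for ZFP36L2, 25.6 for ZFP36, 17.1 for TIPARP and 4.46 for ZFP36L1. By CPM without regard to length, BTG2 ranked 149th of the 13085 tested genes and ZFP36L1 ranked 5956th, with a median of 19.3 CPM over tested genes. With PBS the per kilobase levels were 171 ± 27.9 for BTG2, 35 ± 0.326 for BTG1, 27.5 ± 1.54 for ZFP36, 21.8 ± 1.03 for TIPARP, 19.7 ± 1.95 for ZFP36L2 and 4.88 ± 1.16 for ZFP36L1 (CPM per kilobase, SD, n = 3). TIPARP and ZFP36L2 were neighbours in that order, and their PBS libraries overlapped. With each treatment ZFP36L2 stood above both ZFP36 and TIPARP on average, though it overlapped ZFP36 with elesclomol and with the combination. It stood at 39.3 ± 11.7 CPM per kilobase with bortezomib, 32 ± 7.64 with elesclomol, 30.1 ± 6.5 with the combination and 31 ± 2.93 with the delayed combination.

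**Figure D1:**
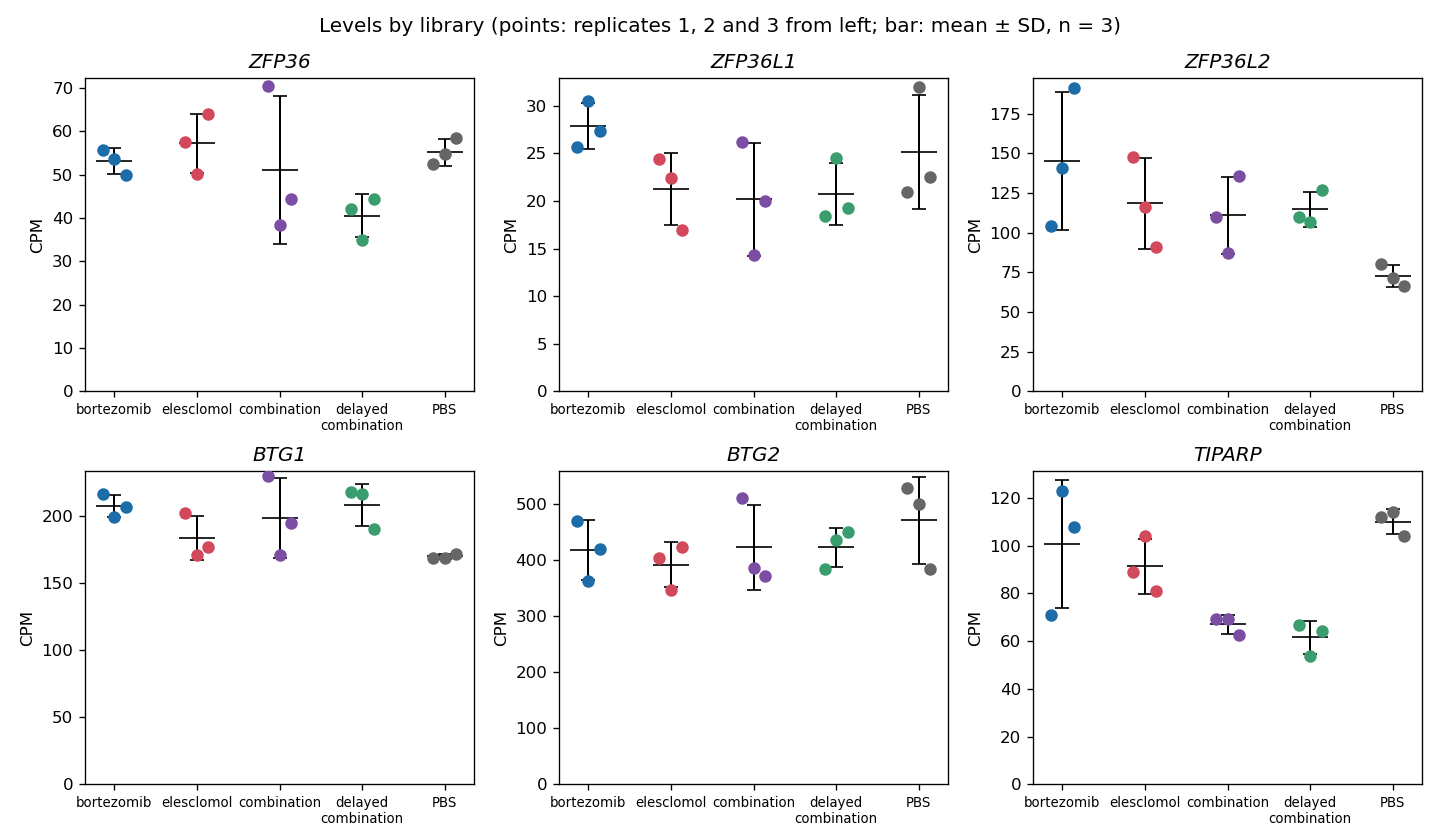
CPM of the 6 genes in each library, by group; points are replicates 1, 2 and 3 from the left and bars are the mean ± SD (n = 3). For ZFP36L2 the 12 treated libraries sit at 87.5 to 191 CPM, above the PBS libraries at 66.5 to 80.6 CPM, and for TIPARP the combination and delayed combination libraries sit at 53.7 to 69.4 CPM, below PBS at 104 to 114 CPM.

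ZFP36L2, an RNA-binding protein that limits proliferation of lymphocyte precursors in mice, stood higher in every treated group than with PBS, but the difference did not pass the threshold over all genes. It had 104, 141 and 191 CPM with bortezomib, 148, 116 and 91.3 with elesclomol, 110, 87.5 and 136 with the combination, 110, 107 and 127 with the delayed combination, and 80.6, 71.2 and 66.5 with PBS. All 12 treated libraries lay above every PBS library, a pattern shown by 1.25% of tested genes. The bortezomib libraries spread most.

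Against PBS, the log2 change of ZFP36L2 was 1.00 ± 0.22 with bortezomib, a 2-fold difference in level (SE, edgeR adjusted p = 0.419). It was 0.70 ± 0.22 with elesclomol (edgeR adjusted p = 0.444), 0.61 ± 0.22 with the combination (adjusted p = 0.299) and 0.66 ± 0.22 with the delayed combination (adjusted p = 0.383). The exact two-sided permutation p was 0.1 for each, the smallest that 3 against 3 libraries can give. The 4 comparisons share the PBS libraries, so they are not independent. The bortezomib comparison passed under DESeq2 (adjusted p = 0.0364) and limma voom (0.00653). ZFP36L2 has a GC content of 54.4%, against a median of 47.4% over tested genes. After correction for GC content and length its change was 0.88 ± 0.24 with bortezomib, 0.63 ± 0.24 with elesclomol and 0.46 ± 0.24 with the combination. None of these passed (edgeR adjusted p = 0.553, 0.553 and 0.481). With the delayed combination the lowest change under any alternative was 0.54. Elesclomol 1, the library with the highest host marker level, held the highest ZFP36L2 level of its group, and without it the elesclomol change was 0.51 ± 0.22. When that marker level entered the model as a covariate the change was 0.46 ± 0.22.

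On the log2 scale, ZFP36L2 with the combination lay below the sum of the changes with each drug alone. This interaction of bortezomib and elesclomol was -1.09 ± 0.31 and did not pass (edgeR unadjusted p = 0.00343, adjusted p = 0.37). ZFP36L2 was the only one of the 6 genes with an unadjusted p under 0.05 for the interaction, where 8.79% of tested genes had one and 1 gene, or 0.00764%, passed the threshold. With the host marker covariate the interaction was -0.79 ± 0.30.

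Collagen genes of stromal and bone cells also averaged higher in every treated group than with PBS. COL1A1, the main bone collagen chain, had 22.2 ± 13.8 CPM with bortezomib, 18.5 ± 12 with elesclomol, 18.8 ± 9.25 with the combination, 30.9 ± 19.7 with the delayed combination and 3.32 ± 1.03 with PBS (log2 changes of 2.74 ± 0.82, 2.49 ± 0.82, 2.53 ± 0.82 and 3.24 ± 0.80). COL1A2, its partner chain, averaged 17.3, 16.1, 16.5 and 31.6 CPM in those treated groups and 5.29 CPM with PBS. Neither gene passed in any comparison with PBS, where the lowest edgeR adjusted p was 0.262. Of the 9 tested stromal markers, 5, 7, 3 and 6 lay above 0 in the same order of groups, with median log2 changes of 0.16, 0.76, -0.18 and 0.33. Their part in the ZFP36L2 difference was not tested.

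ZFP36, also called tristetraprolin and the founding member of the family, had the smallest change of the 6 genes against PBS with bortezomib, elesclomol and the combination, and stood lowest with the delayed combination. Levels were 55.8, 53.6 and 50 CPM with bortezomib, 57.6, 50.1 and 63.9 with elesclomol, 70.4, 38.3 and 44.5 with the combination, 42.2, 34.9 and 44.4 with the delayed combination, and 52.4, 54.7 and 58.5 with PBS. The delayed combination libraries all lay below the PBS libraries, while the other treated groups overlapped PBS. Combination 1, whose levels shifted with GC content, held the highest ZFP36 level of all libraries. The log2 change of ZFP36 against PBS was -0.05 ± 0.18 with bortezomib, 0.05 ± 0.18 with elesclomol, -0.11 ± 0.18 with the combination and -0.45 ± 0.18 with the delayed combination (edgeR adjusted p = 0.911, 0.966, 0.785 and 0.421 in that order). Without the 3 GC-shifted libraries the combination value was -0.41 ± 0.12 and the delayed combination value -0.34 ± 0.12 (edgeR adjusted p = 0.343 and 0.395). After correction for GC content and length, ZFP36 stood at -0.22 ± 0.15 with bortezomib, -0.04 ± 0.15 with elesclomol, -0.32 ± 0.15 with the combination and -0.60 ± 0.15 with the delayed combination (edgeR adjusted p = 0.639, 0.98, 0.441 and 0.19). Against bortezomib, the delayed combination stood at -0.39 ± 0.18 for ZFP36 (edgeR unadjusted p = 0.0412), with no overlap between the libraries, as for 3.86% of tested genes in that direction.

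ZFP36L1, which acts beside ZFP36L2 in mouse lymphocyte development, was the lowest of the 6 genes, and none of its differences passed the threshold. It had 25.7, 30.5 and 27.4 CPM with bortezomib, 24.4, 22.4 and 17 with elesclomol, 26.2, 14.3 and 20 with the combination, 18.4, 24.5 and 19.3 with the delayed combination, and 21, 32 and 22.5 with PBS. Each treated group overlapped PBS, and PBS 2 was the highest of the 15 libraries. The log2 change against PBS was 0.14 ± 0.21 with bortezomib, -0.26 ± 0.22 with elesclomol, -0.32 ± 0.22 with the combination and -0.29 ± 0.21 with the delayed combination, and the lowest edgeR adjusted p was 0.501. Without PBS 2 the values were 0.34 ± 0.22 with bortezomib, -0.03 ± 0.22 with elesclomol, -0.11 ± 0.22 with the combination and -0.08 ± 0.22 with the delayed combination. In the 2 by 2 arrangement, elesclomol and combination libraries together against bortezomib and PBS libraries, ZFP36L1 stood at -0.35 ± 0.15 (edgeR unadjusted p = 0.0332, exact permutation p = 0.0498, 6 against 6 libraries), and at -0.24 ± 0.15 without PBS 2. Its difference between combination and bortezomib was -0.45 ± 0.21 (edgeR unadjusted p = 0.0494, adjusted p = 0.999), and without the 3 GC-shifted libraries -0.75 ± 0.22.

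BTG1, which together with BTG2 keeps resting T cells quiescent in mice, stood slightly higher with treatment, by at most 1.22-fold on average. Levels were 216, 199 and 207 CPM with bortezomib, 202, 171 and 177 with elesclomol, 230, 171 and 195 with the combination, 218, 216 and 190 with the delayed combination, and 169, 169 and 172 with PBS. All 12 treated libraries lay above the PBS median, but elesclomol 2 and combination 2, at 171 CPM each, lay within the PBS range. The share of tested genes with all 12 above that median was not counted. The bortezomib and delayed combination groups did not overlap PBS. The 3 PBS libraries agreed closely (170 ± 1.58 CPM, SD). Over all genes, too, PBS libraries differed less from each other than libraries within any treated group (chi-square per degree of freedom 2.13 to 3 against 5.07 to 24). For the same relative spread this measure rises with depth. Libraries held 4500326 to 6287708 counts with PBS and 5458022 to 13161087 with treatment, and the part of depth was not tested.

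The log2 change of BTG1 against PBS was 0.29 ± 0.11 with bortezomib (1.22-fold, edgeR unadjusted p = 0.0186, adjusted p = 0.449) and 0.29 ± 0.11 with the delayed combination (1.22-fold, unadjusted p = 0.0167, adjusted p = 0.401). It was 0.11 ± 0.11 with elesclomol and 0.22 ± 0.11 with the combination (edgeR adjusted p = 0.854 and 0.38). BTG1 has a low GC content, 38.7% of exon bases against a median of 47.4% over tested genes. After correction for GC content and length its change was 0.55 ± 0.22 with bortezomib, 0.24 ± 0.22 with elesclomol, 0.54 ± 0.22 with the combination and 0.53 ± 0.22 with the delayed combination, and none passed (edgeR adjusted p = 0.575, 0.884, 0.4 and 0.419). Without the 3 GC-shifted libraries the combination value was 0.11 ± 0.11.

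BTG2, a target of p53 that growth stimuli also induce within minutes, did not separate the groups. It had 471, 364 and 421 CPM with bortezomib, 405, 347 and 424 with elesclomol, 511, 387 and 373 with the combination, 384, 436 and 451 with the delayed combination, and 530, 501 and 384 with PBS. Every treated group overlapped PBS, and PBS 3 was lower than the other PBS libraries. The log2 change against PBS lay between -0.27 ± 0.15 with elesclomol and -0.15 ± 0.15 with the delayed combination, with -0.17 ± 0.15 for bortezomib and -0.16 ± 0.15 for the combination. The lowest edgeR adjusted p of the 4 was 0.625.

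TIPARP stood lower where bortezomib and elesclomol were given together, whether from the start or with a delay. Levels were 70.9, 123 and 108 CPM with bortezomib, 89, 104 and 81 with elesclomol, 69.3, 69.4 and 62.4 with the combination, 66.6, 53.7 and 64.4 with the delayed combination, and 112, 114 and 104 with PBS. The combination and delayed combination libraries all lay below every library of elesclomol and of PBS, and below every library of bortezomib. Of the 12 treated libraries, 9 lay below every PBS library. The share of tested genes with these patterns was not counted. Against PBS alone, 10.9% of tested genes lay wholly lower with the combination and 14.7% with the delayed combination. The low bortezomib value, 70.9 CPM, came from bortezomib 1, one of the GC-shifted libraries.

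The log2 change of TIPARP against PBS was -0.71 ± 0.16 with the combination (0.61 of the PBS level, edgeR unadjusted p = 0.000511, adjusted p = 0.158). With the delayed combination it was -0.84 ± 0.16 (0.56 of the PBS level, edgeR unadjusted p = 0.000111, adjusted p = 0.165). With bortezomib it was -0.13 ± 0.16 and with elesclomol -0.27 ± 0.16 (edgeR adjusted p = 0.72 and 0.728). Neither dual treatment passed the threshold in the edgeR fit, but both did under DESeq2 (adjusted p = 0.031 for the combination and 0.00377 for the delayed combination) and limma voom (0.00262 and 0.00923). Both also passed in edgeR without the 3 GC-shifted libraries, at -0.73 ± 0.12 and -0.74 ± 0.11 (adjusted p = 0.0415 and 0.0312), where the bortezomib value was 0.07 ± 0.11. In that fit 9 genes in all passed with the combination and 3 with the delayed combination. It had a library fewer in each of the bortezomib, combination and delayed combination groups.

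Set against the single drugs, TIPARP differed in the same direction. The log2 change was -0.58 ± 0.16 between combination and bortezomib (edgeR unadjusted p = 0.00265, adjusted p = 0.999), -0.45 ± 0.16 between combination and elesclomol (unadjusted p = 0.0144, adjusted p = 0.298) and -0.70 ± 0.16 between delayed combination and bortezomib (unadjusted p = 0.000544, adjusted p = 0.813). The libraries did not overlap in any of these 3 comparisons (3.93%, 7.47% and 3.86% of tested genes were lower without overlap, in the same order). Without bortezomib 1 the difference between delayed combination and bortezomib was -0.91 ± 0.12 and passed (edgeR adjusted p = 0.0298), where 4 genes in all passed. Between delayed combination and combination it was -0.12 ± 0.16, with overlapping libraries. In the 2 by 2 arrangement the elesclomol effect on TIPARP was -0.42 ± 0.11 (edgeR unadjusted p = 0.00206, adjusted p = 0.75, exact permutation p = 0.0303), and the interaction was -0.32 ± 0.23 (adjusted p = 0.745). The elesclomol effect on the genes not yet given was 0.00 ± 0.13 for ZFP36, 0.16 ± 0.15 for ZFP36L2, 0.02 ± 0.08 for BTG1 and -0.12 ± 0.11 for BTG2, each with overlapping libraries.

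**Figure D2:**
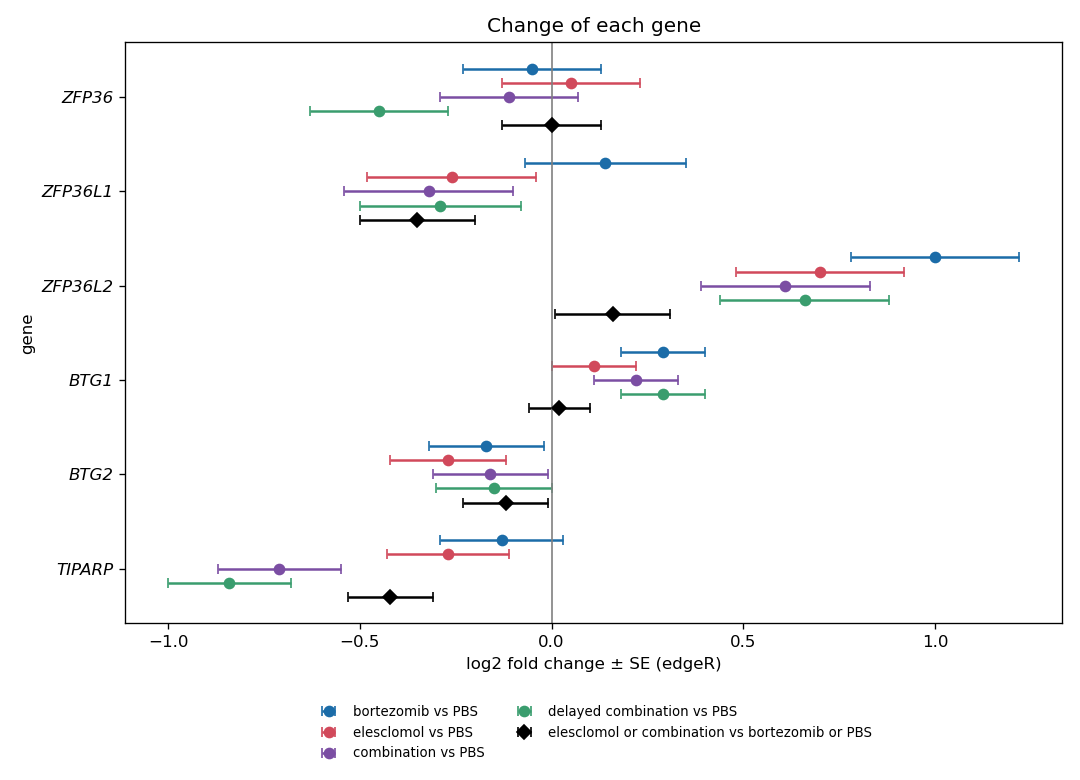
Log2 fold change ± SE (edgeR) of each gene in the 4 comparisons with PBS (circles) and for elesclomol and combination against bortezomib and PBS libraries (diamonds); values above 0 are higher in the treated libraries. ZFP36L2 lies between 0.61 and 1.00 in the 4 comparisons with PBS, and TIPARP lies at -0.71 and -0.84 with the 2 dual treatments.

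Over the 10 comparisons, 0 of the 6 genes had an edgeR adjusted p under 0.05. The share of tested genes that did was 0% with bortezomib, 0.0688% with elesclomol, 0% with the combination and 0% with the delayed combination, each against PBS, and 0% between the treatments and for the elesclomol effect. At an unadjusted p under 0.05, 2 of the 6 genes were higher with bortezomib (ZFP36L2 and BTG1) and 0 lower, where 6.76% of tested genes were higher and 3.84% lower. With elesclomol 1 was higher (ZFP36L2; 4.88% of tested genes). With the combination 1 was higher (ZFP36L2; 7.72%) and 1 lower (TIPARP; 5.92%), and with the delayed combination 2 were higher (ZFP36L2 and BTG1; 6.03%) and 2 lower (ZFP36 and TIPARP; 5.03%). At the same level 2 were lower between combination and bortezomib (ZFP36L1 and TIPARP; 1.95%), 1 between combination and elesclomol (TIPARP; 5.82%), 2 between delayed combination and bortezomib (ZFP36 and TIPARP; 2.24%), and 2 for the elesclomol effect (ZFP36L1 and TIPARP; 1.59%). Between delayed combination and combination there were 0 (2.63% in either direction). DESeq2 called 1 of the 6 with bortezomib, 1 with the combination and 1 with the delayed combination, where it called 0.0688%, 0.432% and 0.414% of the genes it gave an adjusted p. Limma voom called 2, 2 and 1, where it called 5.48%, 10.8% and 1.2% of tested genes. With elesclomol DESeq2 and limma voom called 0 of the 6 (0.375% of the genes with a DESeq2 adjusted p, and 0.39% of tested genes under limma voom).

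With bortezomib 2 of the 6 genes lay wholly above PBS (10.5% of tested genes), and with elesclomol 1 did (9.55%). Combination libraries did not overlap PBS for 1 gene higher (11.3%) and 1 lower (10.9%), and delayed combination libraries for 2 higher (12.8%) and 2 lower (14.7%). Between treatments, TIPARP lay wholly lower in the 3 comparisons given above, and ZFP36 and ZFP36L1 also did between delayed combination and bortezomib. Between delayed combination and combination 0 of the 6 were free of overlap (7.59% in either direction). The median log2 change over the 6 genes was 0.04, -0.10, -0.13 and -0.22 with bortezomib, elesclomol, the combination and the delayed combination, against 0.02, 0.00, 0.01 and 0.01 over all tested genes.

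The 6 genes did not vary as 1 group across the 15 libraries. None of their 15 pairs had a correlation that passed after adjustment over the pairs. The closest pair was ZFP36L2 with BTG1 (Pearson r = 0.57, permutation p = 0.0278, adjusted p = 0.292; Spearman rho = 0.48, permutation p = 0.0731, adjusted p = 0.365). Without the 2 libraries farthest from the median ZFP36L2 level r was 0.51, and within groups, as deviations from the group means, it was 0.20. The most negative was BTG1 with TIPARP (r = -0.50, permutation p = 0.0597, adjusted p = 0.292; rho = -0.51, permutation p = 0.056, adjusted p = 0.365), with r = -0.41 without the 2 libraries farthest from the BTG1 median and -0.27 within groups. Within the ZFP36 family, r was 0.37 for ZFP36 with ZFP36L1, 0.20 for ZFP36L1 with ZFP36L2 and -0.12 for ZFP36 with ZFP36L2, and BTG1 with BTG2 had r = 0.11.

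For each gene, the 3 most alike among 8142 well expressed genes were found by Pearson correlation of log2 CPM over the 15 libraries, which share groups and GC shifts. These values are the highest of many and carry no test. ZFP36L2 was nearest to CXCR4 (r = 0.90), the chemokine receptor that holds plasma cells in marrow, then to IL10RA, a subunit of the interleukin-10 receptor (0.85), and BASP1 (0.85). CXCR4 averaged 149 CPM over the 12 treated libraries and 67.2 CPM with PBS. Treated and PBS libraries overlapped for CXCR4, with combination 2 at 6.26 log2 CPM below PBS 1 at 6.49. TIPARP was nearest to KLF6, a zinc finger transcription factor (0.89), RGS2, which damps G protein signalling (0.88), and TSC22D2 (0.87). KLF6 averaged 88.6 CPM over treated libraries and 164 CPM with PBS. Its bortezomib libraries, at 6.63, 7.81 and 7.19 log2 CPM, overlapped the PBS libraries at 7.23, 7.84 and 6.83. The libraries of the other treated groups lay below every PBS library.

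**Figure D3:**
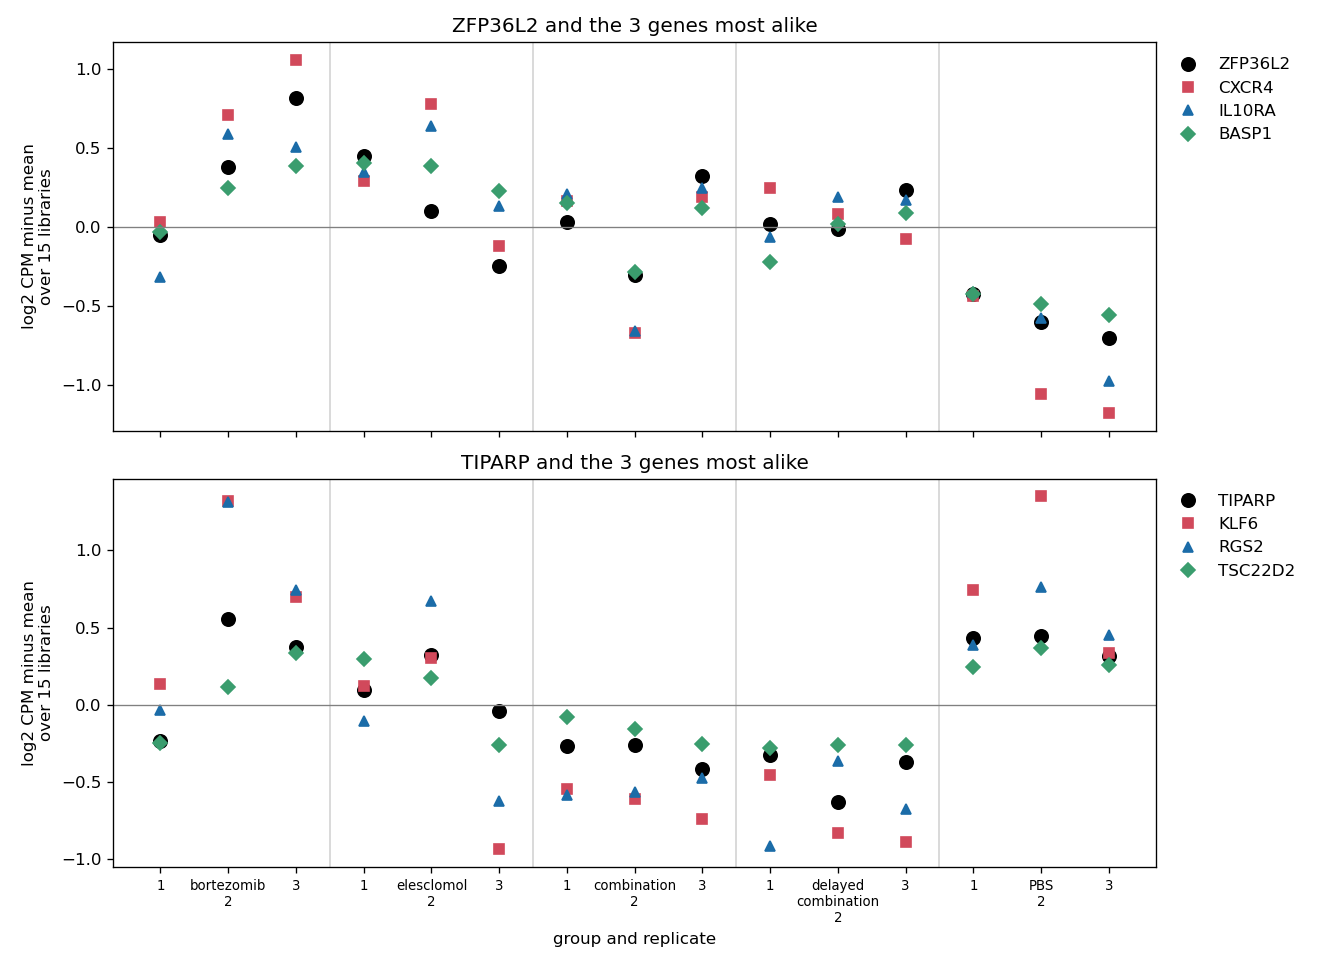
Log2 CPM of each gene minus its mean over the 15 libraries, by library, for ZFP36L2 with CXCR4, IL10RA and BASP1 (upper) and TIPARP with KLF6, RGS2 and TSC22D2 (lower). The PBS libraries hold ZFP36L2 deviations of -0.42 to -0.70, and every TIPARP deviation of the combination and delayed combination libraries is below 0.

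The other genes had different neighbours. BTG1 was nearest to QRICH1 (0.89), TUSC2 (0.88) and TMEM11 (0.86), and BTG2 to CTU2 (0.83), METTL21A (0.83) and SRF, the serum response factor (0.82). ZFP36 was nearest to RTN4 (0.81), ATXN1L (0.80) and GYS1, muscle glycogen synthase (0.80). ZFP36L1 was nearest to SAT1, a polyamine acetyltransferase (0.86), MRPS22, a mitochondrial ribosomal protein (0.77), and RANBP9 (0.75).

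Median changes of the machinery through which these proteins act lay near those of all genes. Of 12 subunits and partners of the CCR4-NOT deadenylase, 0 passed in either direction in any comparison with PBS, and the median log2 changes were 0.01 with bortezomib, 0.03 with elesclomol, -0.05 with the combination and 0.05 with the delayed combination. CNOT8, a catalytic subunit that BTG proteins bind, stood at 32.6 ± 1.2 CPM with elesclomol and 37.4 ± 3.27 CPM with PBS (-0.19 ± 0.09, SE). CNOT2, a scaffold subunit, stood at 69.1 ± 10.7 CPM with the combination and 83.7 ± 0.999 CPM with PBS (-0.28 ± 0.12, edgeR adjusted p = 0.355). Among the other BTG and TOB genes 3 of 4 could be tested and 0 passed, with BTG3, TOB1 and TOB2 between -0.20 and 0.35 in log2 change against PBS.

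The later steps of decay gave the same counts. In the same order of groups, medians were 0.08, -0.06, 0.07 and 0.04 for 8 other deadenylases and poly(A)-binding proteins, 0.15, 0.11, 0.06 and 0.01 for 12 genes of decapping, and 0.06, 0.01, 0.11 and 0.08 for 16 genes of the exosome, and 0 passed in each. PABPC1, the main cytoplasmic poly(A)-binding protein, stood at 270 ± 62 CPM with elesclomol and 195 ± 14.2 CPM with PBS (0.47 ± 0.17, edgeR adjusted p = 0.499). EDC4, a decapping scaffold, stood at 53.8 ± 10 CPM with bortezomib and 40.8 ± 3.62 CPM with PBS (0.40 ± 0.13, edgeR adjusted p = 0.427). DDX6, a helicase that links deadenylation to decapping, had 269 ± 17.9 CPM with elesclomol and 226 ± 14.2 CPM with PBS.

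Proteins that compete with or regulate the ZFP36 family did not pass either. Of 12 other proteins that bind decay elements, 0 passed, with medians of -0.03, 0.08, -0.09 and -0.14. KHSRP, a decay-promoting protein of AU-rich elements, had 142 ± 14.8 CPM with bortezomib and 110 ± 7.23 CPM with PBS (0.37 ± 0.11, edgeR adjusted p = 0.419). TIA1, a translational repressor that binds such elements, had 64.6 ± 9.53 CPM with bortezomib and 83.4 ± 5.36 CPM with PBS (-0.37 ± 0.16, edgeR adjusted p = 0.458). Of 15 genes of the p38 and MK2 axis 0 passed, with medians of 0.15, 0.10, -0.01 and 0.12. MAPKAPK2, the kinase MK2 itself, had 184 ± 27 CPM with elesclomol and 148 ± 4.8 CPM with PBS (0.31 ± 0.20).

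Of 20 mRNAs known as targets of the ZFP36 family, 14 were tested and 0 passed. Their medians were 0.04 with bortezomib, -0.20 with elesclomol, 0.00 with the combination and -0.07 with the delayed combination. MCL1, a survival protein of plasma cells, had 646 ± 111 CPM with elesclomol and 969 ± 53.9 CPM with PBS (-0.58 ± 0.14, edgeR adjusted p = 0.233). VEGFA, the vascular growth factor, had 15.8 ± 0.919 CPM with elesclomol and 23.3 ± 3.88 CPM with PBS (-0.56 ± 0.16, adjusted p = 0.367). PIM1, a survival kinase with 3 nonamers in its 3′ untranslated region, had 69.6 ± 7.92 CPM with elesclomol and 50.6 ± 7.81 CPM with PBS (0.47 ± 0.14, edgeR adjusted p = 0.383). MCL1 held 0 nonamers and VEGFA 1. The listed targets held values on both sides of 0 in every comparison.

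All tested genes with the nonamer UUAUUUAUU, a group defined by sequence after the other results were known, had median changes slightly below those of all tested genes with a 3′ untranslated region. Of 1065 such genes, 413 lay above 0 with bortezomib, 423 with elesclomol, 384 with the combination and 405 with the delayed combination. Over all 11043 tested genes with such a region annotated, 5929, 5637, 5709 and 5757 lay above 0 in the same order. Median log2 changes of the 1065 were -0.08, -0.06, -0.11 and -0.09, against 0.02, 0.01, 0.01 and 0.01 over the 11043. At an unadjusted p under 0.05, 54 of the 1065 were higher and 63 lower with bortezomib, 55 and 47 with elesclomol, 49 and 103 with the combination, and 37 and 83 with the delayed combination. Of the 11043, 833 were higher and 434 lower with bortezomib, 563 and 363 with elesclomol, 878 and 724 with the combination, and 679 and 546 with the delayed combination. Genes with the element have AU-rich tails, and the parts of the GC shift and of region length in this difference were not tested.

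Around TIPARP, AHR itself, the receptor that drives TIPARP transcription, had 9.23 ± 1.51 CPM with bortezomib, 8.53 ± 1.9 with elesclomol, 9.58 ± 1.78 with the combination, 9.47 ± 2.47 with the delayed combination and 13.2 ± 1.63 with PBS. It averaged lower in all 4 treated groups and passed in none (-0.52 ± 0.23, -0.63 ± 0.23, -0.48 ± 0.22 and -0.48 ± 0.22, edgeR adjusted p = 0.458, 0.499, 0.366 and 0.446). NFE2L2, the antioxidant factor NRF2, had 31.3 ± 2.49 CPM with the combination and 40.7 ± 1.87 CPM with PBS (-0.39 ± 0.10, edgeR adjusted p = 0.204). It had 34.5 ± 1.96 CPM with bortezomib, 32.9 ± 1.58 with elesclomol and 33.4 ± 2.92 with the delayed combination (edgeR adjusted p = 0.457, 0.446 and 0.384). ARNT, the partner of AHR, had 64.6 ± 6.06 CPM with the combination and 59.8 ± 3.66 CPM with PBS (0.11 ± 0.12). Of the 10 genes in the AHR list 6 were tested and 0 passed, with medians of 0.08, -0.06, 0.02 and 0.07. Of 11 tested genes listed as other mono-ADP-ribosyltransferases or their relatives 0 passed, with medians of 0.10, 0.10, -0.02 and 0.05. ZC3HAV1, an antiviral zinc finger protein on that list, stood at 90.1 ± 6.58 CPM with the combination and 87.6 ± 4.53 CPM with PBS. With elesclomol it stood at 100 ± 2.81 CPM (0.19 ± 0.09, edgeR adjusted p = 0.614).

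Among the 12 lists of pathway genes, the median changes farthest from 0 belonged to the immediate early genes, which growth signals induce within minutes. ZFP36 and BTG2 are classed with such genes, and ZFP36, BTG2 and TIPARP were not in the list. Its 18 tested genes had medians of -0.40 with bortezomib, -1.25 with elesclomol, -1.15 with the combination and -1.56 with the delayed combination, and 17, 18, 17 and 17 of them lay below 0. DUSP2, a nuclear MAP kinase phosphatase, was the 1 gene that passed, and fell with elesclomol (5.6 ± 0.561 CPM with elesclomol and 21.9 ± 2.58 CPM with PBS, -1.97 ± 0.25, edgeR adjusted p = 0.00574). FOS, which is also on the list of ZFP36 targets, had 33.6 ± 32 CPM with the combination, 19 ± 10.5 with the delayed combination and 213 ± 42 with PBS (edgeR adjusted p = 0.257 and 0.252). It had 143 ± 29.1 CPM with bortezomib and 48.1 ± 35.3 with elesclomol (edgeR adjusted p = 0.727 and 0.503). Set beside them, ZFP36 stood at 0.05 with elesclomol, -0.11 with the combination and -0.45 with the delayed combination, and BTG2 at -0.27, -0.16 and -0.15. KLF6 and SRF, among the genes nearest to TIPARP and BTG2, belong to this list, as does MCL1.

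Of 17 other p53 target genes 0 passed, with medians of 0.02, -0.06, 0.17 and 0.14. With elesclomol 13 of the 17 lay below 0. SESN1, a stress-induced regulator of growth signalling, had 13.9 ± 2.06 CPM with elesclomol and 21 ± 3.23 CPM with PBS (-0.59 ± 0.16, edgeR adjusted p = 0.338). TP53INP1, a stress protein that p53 induces, had 270 ± 46.3 CPM with elesclomol and 185 ± 12.1 CPM with PBS (0.55 ± 0.13, edgeR adjusted p = 0.213). BTG2, itself a p53 target, stood at -0.27 ± 0.15 in that comparison.

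**Figure D4:**
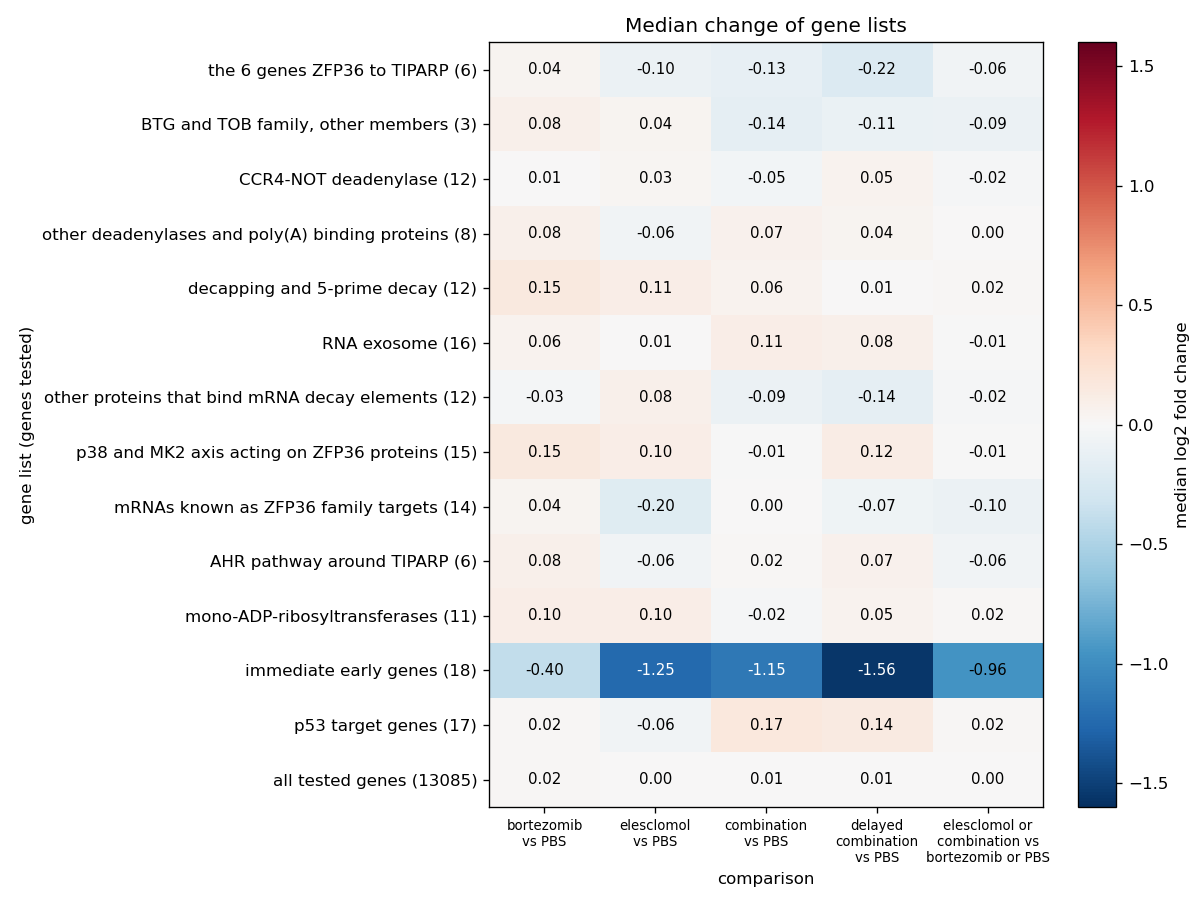
Median log2 fold change of each gene list (number of genes tested in parentheses) in the 4 comparisons with PBS and for elesclomol and combination against bortezomib and PBS libraries, with the 6 genes in the top row and all tested genes in the bottom row. The immediate early genes range from -0.40 to -1.56, while the medians of the other lists shown lie between -0.20 and 0.17 and those of the 6 genes between -0.22 and 0.04.

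Reads that could belong to relatives of the 6 genes were few. The pseudogene BTG1P1 had 0 to 1 counts in a library, and the divergent or antisense transcripts BTG1-DT, BTG2-DT and TIPARP-AS1 had 2 to 19, 4 to 29 and 5 to 17. The kit marks strand, but the strand setting of the counting is not given in the sources used here. How mouse reads were handled is not given either, so reads of conserved mouse transcripts can be among the counts of all 6 genes, and their share was not tested.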

How the data were processed

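Total RNA was sequenced from 15 marrow samples. Per the labels' protocols, Trizol was used for extraction and a stranded kit that removes ribosomal RNA for the libraries. The tools STAR 2.5.4b and featureCounts 1.6.1 and the build GRCh37 are named, per the submitters' processing notes. The authors deposited raw counts per Ensembl gene, and 0 columns of other samples were present. GENCODE 29 named 52338 of the 57773 identifiers and gave lengths, GC content and 3′ untranslated regions.

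The groups follow the sample titles, and the series text states separate tumours. Depth was 4500326 to 13161087 counts. Counts were tested with edgeR 4.0.16 (quasi-likelihood, robust, TMM, R 4.3.3). Genes were kept with filterByExpr (minimum count 10), all 15 libraries were in 1 model, and Benjamini-Hochberg adjustment ran over 13085 genes (threshold 0.05). The common biological coefficient of variation was 0.171. Log2 CPM used a prior count of 2. Correlations used 100000 permutations. Python 3.11.15, pandas 2.3.3, scipy 1.17.1 and matplotlib 3.10.9 were used. The fit was tested on simulated counts.

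Alternatives were limma 3.58.1 voom with quality weights, DESeq2 1.42.0, size factors from DESeq2, other filters, only the groups compared, a replicate block, a host marker covariate, no mitochondrial genes, a GC and length correction (loess, span 0.3), and leaving out libraries. Bortezomib and combination were the only groups whose same-numbered libraries clearly deviated together for more than a single number (correlations 0.655, 0.523 and 0.118). Single pairs of other groups reached 0.369 (combination and delayed combination 3) and 0.307 (bortezomib and elesclomol 2). The GC correlations of bortezomib and combination were also alike by number (0.51 and 0.49, -0.31 and -0.25, 0.08 and 0.08), and their part in this was not tested. The pairing of bortezomib with combination comes from the data, as the labels give no source for it. A fit of those groups alone with the block was added after seeing the data.

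The 6 genes and the 18 lists were chosen with earlier results of these data known. All 6 genes are given in each comparison with PBS and in the elesclomol effect, and elsewhere where the unadjusted p was under 0.05 (further values were added for contrast). From each list up to 4 genes, those called or with the smallest p for elesclomol, could be named. MRC1, DCP1A and PECAM1 were not matched to an identifier. ZFP36L2 had no promoter entry.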

Additional observations from a re-analysis of the deposited data

How the results depend on the processing

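The edgeR count of the 6 genes past the threshold was 0 in all 10 comparisons, and it moved from 0 under some settings. With no filter on low counts it was 1 for bortezomib, 1 for elesclomol, 2 for the combination and 2 for the delayed combination against PBS, 1 for combination against bortezomib, 1 for delayed combination against bortezomib, 1 for the elesclomol effect and 1 for the interaction, all of them ZFP36L2 or TIPARP. Under limma voom it was 2 (ZFP36L2 and BTG1), 0, 2 (ZFP36L2 and TIPARP) and 1 (TIPARP) against PBS, 1 for combination against bortezomib and 1 for the elesclomol effect (TIPARP), and 1 for the interaction (ZFP36L2). Under DESeq2 it was 1 for bortezomib (ZFP36L2), 1 for the combination and 1 for the delayed combination (TIPARP). Without the 3 GC-shifted libraries TIPARP alone of the 6 passed, giving 1 for the combination, 1 for the delayed combination, 1 for combination and 1 for delayed combination against bortezomib, and 1 for the elesclomol effect. Over all genes that setting called 9, 3, 4, 2 and 9 in the same order. With only the groups compared the count among the 6 was 1 for the delayed combination (TIPARP), where 19 genes in all passed. When each library was left out in turn, the count ranged from 0 to 1 for delayed combination against bortezomib, with TIPARP passing without bortezomib 1. The cause of these moves was not tested. With the replicate block the count was 0 in every comparison, also in the fit of bortezomib and combination alone, and the block changed no other call among the 6 genes. Of 694 alternative values of single genes, 17 had the other sign. TIPARP with bortezomib was 0.07 without the 3 GC-shifted libraries, and -0.30 to 0.07 with each library left out. ZFP36 with elesclomol was -0.04 after GC and length correction, -0.05 with the replicate block added, and -0.04 to 0.14 with each library left out. ZFP36 with the combination ranged from -0.42 to 0.04 on leaving out libraries. The elesclomol effect on ZFP36 was 0.00439 with no filter, 0.01 when genes averaged 3 log2 CPM or more, 0.02 with the host marker covariate, and -0.16 to 0.08 on leaving out libraries. That on BTG1 was -0.01 without the GC-shifted libraries and -0.04 to 0.07 on leaving out libraries. Without the GC-shifted libraries r was -0.31 for BTG1 with BTG2 and 0.20 for BTG2 with TIPARP. Over all genes, edgeR called 0 with bortezomib, 9 with elesclomol, 0 with the combination and 0 with the delayed combination, against 717, 51, 1407 and 157 under limma voom, 9, 49, 51 and 51 under DESeq2, and 76, 129, 211 and 193 with no filter. Limma voom also called 39 genes between combination and bortezomib, 32 for the elesclomol effect and 286 for the interaction. With no filter, 14 genes passed between combination and bortezomib and 25 between delayed combination and bortezomib. That setting called 32 for the elesclomol effect and 127 for the interaction. Among the gene lists, 71 counts of genes called moved up by over 1.5 times and 1 moved down. With 3 libraries a group the SE of a change was 0.11 for BTG1 and 0.15 for BTG2 on the log2 scale.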
